A study of Mus musculus with 8 samples.

Results

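The regions described here were 949 PU.1 ChIP-Seq peaks that were called in the empty-vector line and not in the PuER line, lay away from promoters and carried a CEBPA peak. Each was a PU.1 peak of the empty-vector line that overlapped no PU.1 peak of the PuER line by 1 bp, had its centre more than 1000 bp from every transcript start of a protein-coding gene, and overlapped a CEBPA peak of the empty-vector line by at least 1 bp. They were thus selected on the PU.1 calls of both lines and the CEBPA calls of EV, and are called vector-only distal CEBPA peaks. They made up 17.9% of the 5288 PU.1 peaks of that line, and the 4 peak lists of the series held 67673 peaks in all. Both lines were clonal derivatives of X18.1.1, a murine leukaemia line that arose after irradiation, in which one Pu.1 allele is lost and the remaining one is mutated, with an amino acid exchanged where PU.1 contacts DNA and part of the PEST domain missing. One clone (EV, PU.1−) was transduced with the empty retrovirus, so the PU.1 that it made was the mutant protein. The other clone (PuER, PU.1+) carried the same retrovirus with a fusion of wild-type PU.1 to the oestrogen receptor, which is activated by 4-hydroxytamoxifen (OHT). The paper's immunoblot showed the mutant protein in the PuER clone too, and the antibody against PU.1 detected both the mutant and the fusion protein. Cells of both lines received 100 nM OHT for 2 h before chromatin was immunoprecipitated with an antibody against PU.1 or CEBPA.

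There was 1 library for each antibody and line, and each line was a single clone. Differences between the lines therefore had no replicate check and could not be told apart from differences between clones or libraries. The lists held 5288 PU.1 peaks in EV, 15683 in PuER, and 26119 and 20583 CEBPA peaks. All peaks were 400 bp wide and had no height, score or read count, so the depth behind a call is unknown and a region without a call was not shown to be unbound. Each share carries an exact 95% interval (Clopper-Pearson), and differences between classes of peaks carry Newcombe 95% intervals. Both treat peaks as independent, cover counting error only and were not adjusted for the number of comparisons.

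PU.1 is a transcription factor of the ETS family, whose members bind a GGAA core in DNA. PU.1 itself prefers purines before that core, whereas ETS1 and its close relatives prefer a C that is followed by an A or a C. CEBPA is a basic leucine zipper factor that binds as a dimer to palindromic sites. In granulocyte and monocyte precursors the 2 factors occupy many of the same enhancers and regulate myeloid genes, and RUNX1 and MYB also act at such enhancers.

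An ETS site (GGAAGT) and a CEBP site (TTGCNNAA, where N is any base) stood together in the central 80 bp of 36 of the 949 peaks, or 3.79% (2.67 to 5.21). The peaks of this kind nearest to a protein-coding start are printed below because they show both recognition sequences beneath both calls. None of those that could be shown had as its nearest assigned gene a gene of the lists described further on. The letters are the central 80 bp on the plus strand of GRCm38 (mm10), and capitals mark the ETS and CEBP sites, on whichever strand they read.
Rrbp1: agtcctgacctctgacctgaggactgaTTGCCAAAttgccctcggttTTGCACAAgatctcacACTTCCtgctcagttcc
Rapgef4: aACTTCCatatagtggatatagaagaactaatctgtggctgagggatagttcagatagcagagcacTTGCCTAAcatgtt
Hopx: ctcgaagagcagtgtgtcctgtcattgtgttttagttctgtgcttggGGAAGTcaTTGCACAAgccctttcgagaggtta
Sgca: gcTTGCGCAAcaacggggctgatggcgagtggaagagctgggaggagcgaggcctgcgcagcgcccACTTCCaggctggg
Gbe1: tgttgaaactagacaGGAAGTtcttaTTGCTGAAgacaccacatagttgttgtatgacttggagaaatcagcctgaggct
Lgmn: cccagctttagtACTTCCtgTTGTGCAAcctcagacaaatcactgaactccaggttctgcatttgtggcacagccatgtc

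The window at Rrbp1 (chr2:144009617-144009696) lay in an intron, 1607 bp from the start of the gene. It held a pair of CEBP sites and an ETS site 8 bases from the nearer of them. The window at Rapgef4 (chr2:72196658-72196737) was intronic, 2102 bp from the start, with 59 bases between the sites, the widest spacing of the 36. In the intron of Hopx (chr5:77097804-77097883), 2566 bp from the start, the ETS and CEBP sites were 2 bases apart. The window nearest to Sgca (chr11:94979130-94979209) was intergenic, 2842 bp from its start, and had 56 bases between the sites. Those nearest to Gbe1 (chr16:70310848-70310927) and Lgmn (chr12:102442840-102442919) were intergenic too, 3062 and 3066 bp from the starts, with 5 and 2 bases between the sites. Each of these 6 regions was called for PU.1 in EV but not in PuER, and each was called for CEBPA in both lines. Across all 36 regions the median spacing was 15.5 bases (quartiles 5.75 and 21), and in the closest pair the sites shared 1 base (a spacing of -1). The CEBPA call was kept in PuER at 35 of the 36, or 97.2% (85.5 to 99.9), beside 78.9% of all 949 regions. At regions with a CEBP site and no ETS site it was kept at 93.2% (87.5 to 96.8), an interval that overlaps that of the 36. Both sites together were more frequent at the shared distal CEBPA peaks, at 5.73%, and the difference of -1.93 points had an interval of -3.57 to -0.17.

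A second set is shown for contrast, chosen after the values were seen. It holds the regions nearest to a coding start that had an ETS1-type site (CAGGAAGT or CCGGAAGT, in capitals) and whose CEBPA call was not kept in PuER, which was the case for 32 regions, 29 of which could be shown.
Usp22: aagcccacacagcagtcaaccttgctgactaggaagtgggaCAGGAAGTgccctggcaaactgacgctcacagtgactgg
1700122O11Rik: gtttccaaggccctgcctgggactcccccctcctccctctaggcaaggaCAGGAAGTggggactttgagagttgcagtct
Spns2: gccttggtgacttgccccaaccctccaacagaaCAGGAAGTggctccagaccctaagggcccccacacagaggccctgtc

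The first of these, at chr11:61160472-61160551, lay in an intron 1127 bp from the start of Usp22. The second, at chr17:48039634-48039713, was intergenic, 1380 bp from the start of 1700122O11Rik, and the third, at chr11:72458231-72458310, was in an intron of Spns2, 1649 bp from its start. None of the 3 held a CEBP or a RUNX site in the window. They were called for PU.1 and CEBPA in EV and for neither in PuER.

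The PU.1 and CEBPA EV calls that chose the peaks are given as a description. Of all PU.1 EV peaks, 43.8% (2318) had no PU.1 peak in PuER, and 1431 of these were distal. A CEBPA EV peak was present at 66.3% of the distal vector-only peaks (63.8 to 68.8), compared with 63.4% of the 2452 distal PU.1 EV peaks that were shared with PuER (61.4 to 65.3) and 57.6% of all PU.1 EV peaks. Near the limits of the rule, the closest peak to a coding start lay 1024 bp away, and the nearest one left out lay at 997 bp. The smallest overlap with a CEBPA peak was 1 bp, and the nearest CEBPA peak that just failed to overlap was 1 bp away. The overlap was far from this limit at most peaks, with a median of 362 bp and with 200 bp or more shared at 883 peaks (93.0%). At the PuER limit, the closest PU.1 PuER peak abutted a vector-only peak without a gap, and the smallest overlap among shared peaks was 3 bp. Only 19 of the 949 peaks lay under 100 bp from a PU.1 PuER peak, and 86 (9.06%) within 1000 bp.

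The CEBPA library of the PuER line was not used to choose the peaks. It showed CEBPA still called at most of the places where the PU.1 call was absent. The CEBPA peak was also called in PuER at 749 of 949 vector-only distal CEBPA peaks, or 78.9% (76.2 to 81.5), and was not called at the other 200. Of all CEBPA EV peaks, 69.3% were called in PuER. The share was higher at the 1554 distal CEBPA peaks whose PU.1 call was shared between the lines, at 90.6% (89.0 to 92.0). The difference was -11.7 percentage points (-14.7 to -8.76), so more of the CEBPA calls were absent where the PU.1 call was absent too. At distal CEBPA EV peaks with no PU.1 peak in either line the share was 63.9% of 17105, which was 15.1 points below the vector-only peaks (12.3 to 17.6). Vector-only PU.1 peaks at promoters with CEBPA had a share of 71.3% of 314, and the difference of 7.59 points from the distal peaks had an interval of 2.15 to 13.4. At the 2043 distal CEBPA peaks that gained a PU.1 call in PuER, 88.7% were kept. Where CEBPA was called in both lines, its peak centre moved little, by a median of 10 bp at the 749 vector-only peaks (quartiles 4 and 25) and 11 bp at the 1408 shared peaks.

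**Figure D1:**
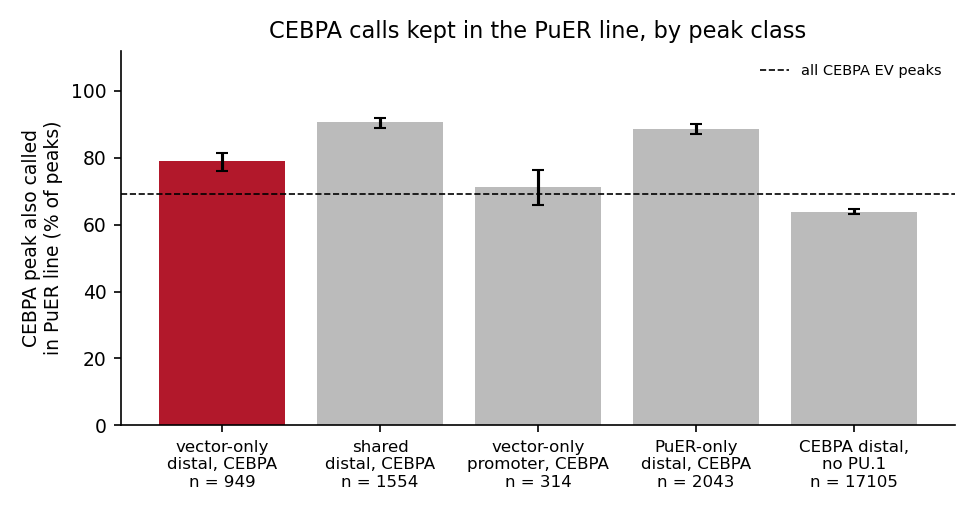
Share of peaks whose CEBPA EV peak was also called in the PuER line (y axis, % of peaks) for 5 classes of peaks, with exact 95% intervals as error bars and the number of peaks below each bar. The vector-only distal CEBPA peaks (red, 78.9%) lay above the dashed line for all CEBPA EV peaks (69.3%) and below the shared distal peaks (90.6%).

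The sequence under the PU.1 centre differed from that of the shared peaks in its ETS sites and not detectably in its CEBP sites. An ETS site lay in the central 80 bp of 227 vector-only distal CEBPA peaks, or 23.9% (21.2 to 26.8), against 4.48% of windows of the same length 2000 bp to either side. The share was 37.5% at the shared distal CEBPA peaks, a difference of -13.5 points (-17.1 to -9.85). It was 35.3% at the 482 vector-only distal peaks without CEBPA, a difference of -11.3 points (-16.4 to -6.35), and 36.5% at all PU.1 EV peaks. The vector-only promoter peaks with CEBPA had 27.1%, and the difference of -3.15 points had an interval (-8.94 to 2.26) that included 0. The difference from the peaks without CEBPA was -6.33 points (-10.6 to -2.03) when peaks were matched by centres within 100 bp. A CEBP site was present at 168 of the vector-only distal CEBPA peaks, 17.7% (15.3 to 20.3), and at 17.5% of the shared ones, and the difference of 0.20 points had an interval of -2.83 to 3.33. In flanking windows the share was 2.63%, and at vector-only distal peaks without CEBPA it was 4.36%. Neither site was found at 590 of the 949 peaks (62.2%), compared with 50.8% of the shared peaks, and that difference of 11.4 points had an interval of 7.41 to 15.3. The share was 61.4% at the vector-only peaks without CEBPA (a difference of 0.76 points, -4.51 to 6.12) and 67.8% at the vector-only promoter peaks with CEBPA. An exact match is a strict criterion. With GGAA alone as the ETS motif the shares were 76.3% and 82.1% and the difference was -5.82 points (-9.17 to -2.55), with 54.8% in the flanking windows. The difference from the vector-only peaks without CEBPA was then -3.38 points, and its interval (-7.75 to 1.24) no longer excluded 0.

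The ETS sites also differed in the bases before the core. The PU.1-type site (GAGGAAGT) was found at 11 of the 949 peaks, 1.16% (0.58 to 2.06), against 0.53% of flanking windows. At the shared distal CEBPA peaks it was found at 141, or 9.07%, and the difference was -7.91 points (-9.53 to -6.31). It was present at 3.32% of the vector-only distal peaks without CEBPA, 9.50% of the distal CEBPA peaks with a PU.1 call only in PuER, and 7.38% of all PU.1 EV peaks. ETS1-type sites, by contrast, were as frequent at the vector-only as at the shared peaks within the error. They were found at 97 peaks, 10.2% (8.37 to 12.3), and at 9.97% of the shared peaks, a difference of 0.25 points (-2.13 to 2.76), against 0.42% in the flanks and 12.0% of all PU.1 EV peaks. At the PuER-only distal CEBPA peaks the ETS1-type share was 4.60%, which was 5.62 points lower (3.59 to 7.87). Both 8-base sites contain GGAAGT and are part of the ETS counts above.

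MYB sites were more frequent than at the vector-only peaks without CEBPA, and IRF sites less frequent than at the shared peaks. RUNX sites (TGTGGT or TGCGGT) were present at 171 peaks, 18.02% (15.6 to 20.6), above the 6.80% of flanking windows. Neither the difference from the shared peaks (-2.06 points, -5.16 to 1.15) nor that from the peaks without CEBPA (2.46 points, -1.74 to 6.38) had an interval that excluded 0. MYB sites (TAACNG or CAACNG) were present at 267 peaks, 28.1% (25.3 to 31.1), compared with 15.9% in the flanks. That was 11.3 points above the vector-only distal peaks without CEBPA (6.79 to 15.6), where 16.8% held one, close to their own flanks at 15.8%. The shared peaks had 25.2%, and CEBPA EV peaks without PU.1 had 29.1%. The IRF motif (AANTGAAA) was found at 3.48%, near the 2.90% of the flanks, and at 7.14% of the shared peaks, a difference of -3.67 points (-5.37 to -1.86). PU.1 binds with IRF4 and IRF8 at joint ETS and IRF sites. The E-box CAGCTG was found at 8.11% and AP-1 sites (TGANTCA) at 6.01%, against 2.95% and 2.42% of flanking windows, and GATA sites (AGATAA or TGATAA) at 3.37%, below the 8.06% of the flanks. Of the 20 features compared with the shared peaks, 10 had a difference whose interval excluded 0. These 10 were not independent, since ETS, PU.1-type, GGAA and ETS-only counts are nested. They also included kept CEBPA calls and position inside a gene, which are not motifs. The interval for the E-box came closest to 0 (2.06 points, 0.03 to 4.26). Median GC content of the window was 48.8%, against 47.5% at the shared peaks and 50.0% at the peaks without CEBPA.

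**Figure D2:**
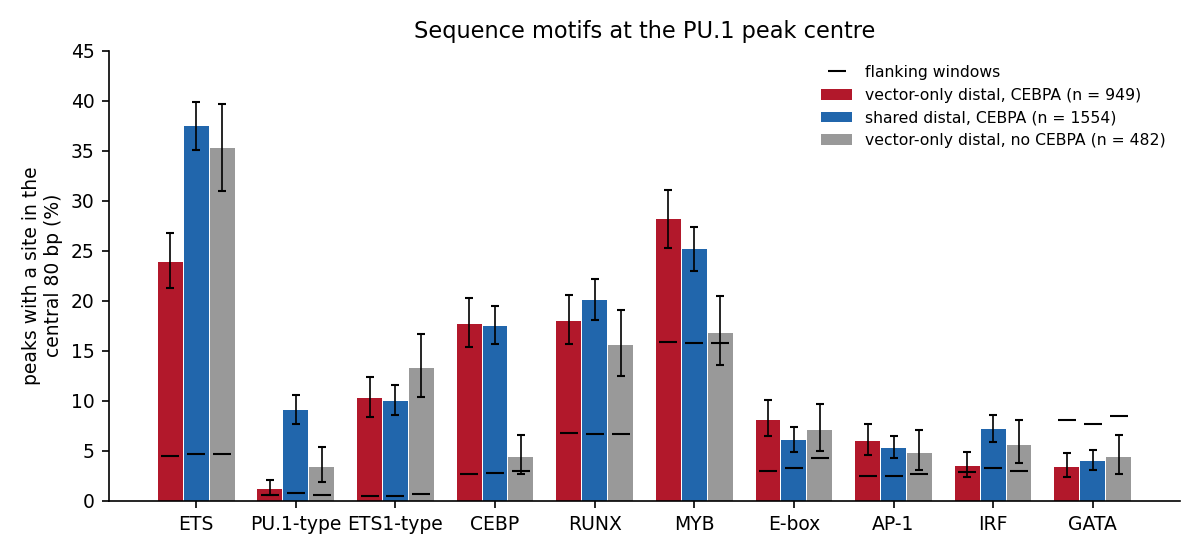
Share of PU.1 peaks with at least 1 exact match to each motif in the central 80 bp (y axis, %), on either strand, for 3 classes of peaks, with exact 95% intervals as error bars and black dashes for the flanking windows of each class. The vector-only distal CEBPA peaks (red) had fewer ETS sites (23.9%) than the shared peaks (blue, 37.5%) and a PU.1-type share of 1.16% against 9.07%, while their CEBP shares were 17.7% and 17.5%.

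Without a chosen motif, the 8-base sequences most in excess over the flanks were of the ETS kind. The first was AGGAAGTG, present in the windows of 102 peaks (10.7%, and 0.53% of flanking windows). The shared peaks had it at 17.95% and the vector-only peaks without CEBPA at 17.8%. CAGGAAGT followed with 91 peaks (9.59%), and it was found at 9.59% of the shared peaks as well. The next 3 were GGAAGTGG at 68 peaks (7.17%), then ACAGGAAG at 67 (7.06%), and GCAGGAAG at 39 (4.11%), and all 5 overlap each other around the same core. The first sequence with a CEBP site was TTGCACAA, in seventh place with 30 peaks (3.16%). At the shared peaks GAGGAAGT stood in the fourth place.

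The sites were concentrated at the centre of the peaks. In the 2 bins of 20 bp around the PU.1 centre there were on average 8.01 ETS sites per 100 vector-only distal CEBPA peaks and bin, and 0.95 in the 2 outermost bins. The corresponding values were 12.7 and 1.45 at the shared peaks and 11.2 and 1.76 at the vector-only peaks without CEBPA. CEBP sites numbered 5.85 per 100 peaks in the central bins and 1.53 in the outer ones, against 5.08 and 0.84 at the shared peaks. When the central 80 bp of the CEBPA peak was searched in place of that of the PU.1 peak, the share with a CEBP site was 29.7% and that with an ETS site 16.2%. The CEBP share was therefore higher, and the ETS share lower, under the CEBPA centre than under the PU.1 centre of the same regions. The PU.1-type share there was 0.63%, against 5.79% at the shared peaks.

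**Figure D3:**
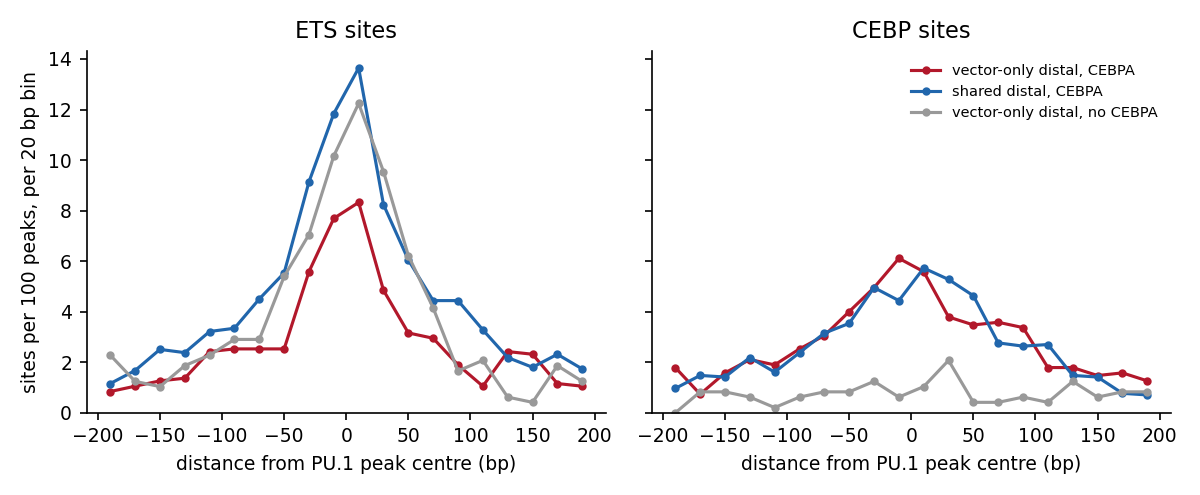
Number of ETS (left) and CEBP (right) sites per 100 peaks in bins of 20 bp (y axis) by distance from the PU.1 peak centre (x axis, bp), for 3 classes of peaks. ETS sites peaked at the centre in all 3 classes and lower in the vector-only distal CEBPA peaks (8.01 per 100 in the central bins) than in the shared peaks (12.7), and CEBP sites were few in the peaks without CEBPA.

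The 749 regions that kept their CEBPA call and the 200 that did not differed in both kinds of site. A CEBP site was present at 21.1% of the kept regions (18.2 to 24.2) and at 5.00% of the others (2.42 to 9.003), a difference of 16.1 points (11.3 to 19.9). ETS sites went the other way, with 21.5% of the kept regions and 33.0% of the others, a difference of -11.5 points (-18.8 to -4.63). With GGAA as the motif that difference was -5.33 points and its interval (-11.2 to 1.40) included 0. ETS1-type sites followed them, with 8.68% and 16.0% (-7.32 points, -13.3 to -2.36). RUNX sites were at 16.7% and 23.0% (-6.31 points, -13.1 to -0.31), whereas MYB sites were at 28.0% and 28.5%. Counted by site, the CEBPA call was kept at 123 of 132 regions with a CEBP site and no ETS site, 93.2% (87.5 to 96.8). It was kept at 126 of 191 regions with an ETS site and no CEBP site, 66.0% (58.8 to 72.7), and the difference of 27.2 points had an interval of 18.7 to 34.9. Regions with neither site kept it at 78.8%.

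At the shared distal CEBPA peaks the call was kept at 98.4% of 183 peaks that held only a CEBP site and 87.6% of 493 that held only an ETS site. The difference there was 10.7 points (6.70 to 14.1). Between their kept and not-called peaks CEBP sites differed by 14.8 points (9.81 to 17.9). The differences for ETS sites (-7.05 points, -15.5 to 1.15), ETS1-type sites (-2.60, -9.08 to 2.09) and RUNX sites (-1.28, -8.87 to 4.97) had intervals that included 0. Between the classes, the largest gap was at peaks with only an ETS site, where the vector-only peaks kept 21.7 points fewer (a difference of -21.7, -29.1 to -14.6). At peaks with only a CEBP site the difference was -5.18 points (-10.9 to -0.75), and at peaks with neither it was -11.2 points (-15.1 to -7.31). These 3 gaps were not tested against each other.

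**Figure D4:**
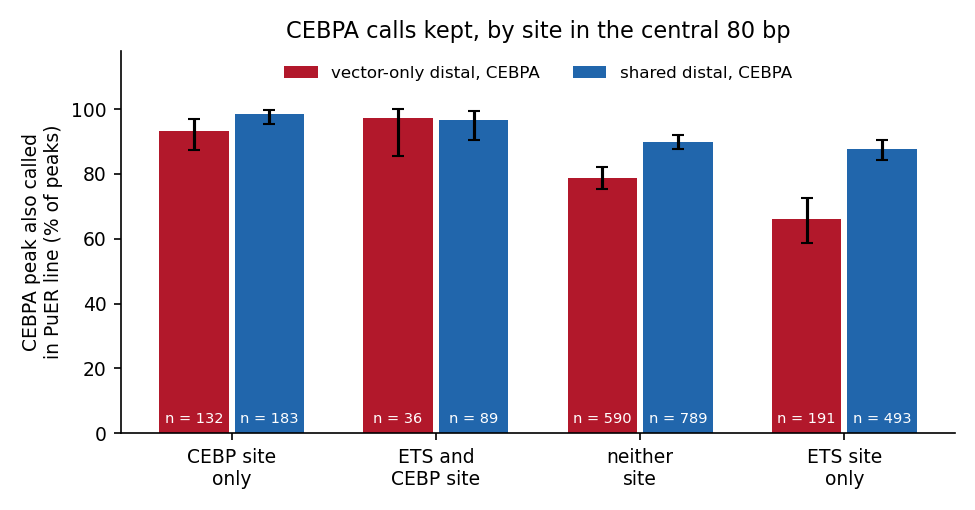
Share of peaks whose CEBPA call was kept in the PuER line (y axis, %), split by the sites in the central 80 bp, for vector-only distal CEBPA peaks (red) and shared distal CEBPA peaks (blue), with exact 95% intervals as error bars and the number of peaks in each bar. With only an ETS site the shares were 66.0% and 87.6%, and with only a CEBP site 93.2% and 98.4%.

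The PU.1 and CEBPA centres lay close together, although the rule asked for an overlap of 1 bp. The median distance between them was 38 bp (quartiles 16 and 87), and it was at most 50 bp at 560 of the 949 regions, 59.0% (55.8 to 62.2). At the shared distal peaks the median was 44 bp and the share 55.2%, a difference of 3.80 points with an interval of -0.20 to 7.76. The centres lay farther apart at the PuER-only distal CEBPA peaks, with a median of 64 bp and 42.2% within 50 bp, which was 16.8 points lower (13.0 to 20.6). There the PU.1 centre came from the PuER line and the CEBPA centre from EV, whereas both came from EV in the other classes, so the line and the class cannot be told apart in this comparison. At the vector-only promoter peaks with CEBPA 46.2% were within 50 bp, 12.8 points lower (6.46 to 19.1). Among the vector-only distal CEBPA peaks, the share within 50 bp was 60.9% where CEBPA was kept and 52.0% where it was not (8.88 points, 1.20 to 16.6).

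**Figure D5:**
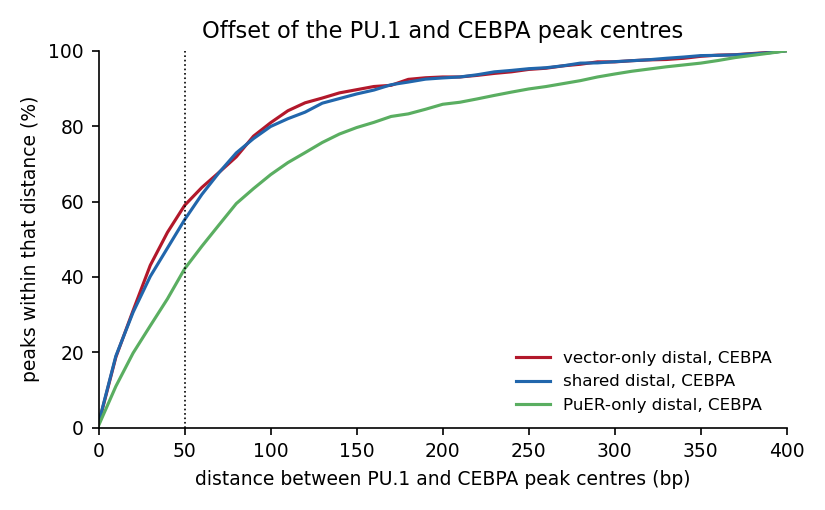
Cumulative share of peaks (y axis, %) by the distance between the PU.1 peak centre and the centre of the overlapping CEBPA EV peak (x axis, bp) for 3 classes of distal peaks, with a dotted line at 50 bp. The PU.1 centre was that of the PuER line for the PuER-only peaks and that of EV for the others. At 50 bp the vector-only (red, 59.0%) and shared (blue, 55.2%) curves lay above that of the PuER-only peaks (green, 42.2%).

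The regions were spread over the genome. Introns of protein-coding genes held 464 of them (48.9%), exons 50 (5.27%) and the space between genes 435 (45.8%). The share inside a gene was 54.2% (50.9 to 57.4) against 50.0% of the shared peaks. That difference of 4.16 points (0.13 to 8.17) was no longer distinct from 0 when peaks were matched by an overlap of 50% (2.35 points, -1.79 to 6.47) or by centres within 100 bp (2.30 points), or when distal meant over 2500 bp (3.91 points). The median distance to a coding start was 17703 bp (quartiles 5953 and 48594), and only 11 regions were more than 50% repeat-masked. The nearest PU.1 peak of the PuER line lay at a median of 14966 bp. A PU.1 PuER peak lay within 10 kb of 40.7% of the regions, compared with 36.9% of the vector-only peaks without CEBPA (3.74 points, -1.62 to 8.99) and 34.1% of CEBPA EV peaks without PU.1 (6.58 points, 3.42 to 9.82). Few lay near each other, with 58 (6.11%) within 10 kb of another.

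Of the 2503 distal PU.1 EV peaks with CEBPA, 37.9% (36.0 to 39.8) were vector-only. By chromosome the share was highest on chromosomes 8 (47.0%, 63 of 134), 12 (45.5%, 50 of 110) and 17 (45.2%, 33 of 73). It was lowest on chromosomes X (25.9%, 7 of 27), 2 (30.4%, 35 of 115) and 19 (30.8%, 24 of 78). The intervals for chromosomes X (11.1 to 46.3), 12 (35.9 to 55.2), 17 (33.5 to 57.3), 2 (22.2 to 39.7) and 19 (20.8 to 42.2) spanned the share over all chromosomes. That for chromosome 8 (38.3 to 55.8) lay just above this share. That for chromosome 1 (31.2%, 25.4 to 37.5, 75 of 240), named after its value was seen, lay just below it.

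The regions were assigned to the gene whose body held the centre, or otherwise to its closest neighbours on the left and the right, up to 50 kb away. This gave 881 protein-coding genes, 4.02% of 21924, and left 130 regions (13.7%) without a gene. A single region was assigned to 781 of the genes, 2 to 90 genes and 3 or more to 10. Of the 881 genes, 231 (26.2%) also had a shared distal CEBPA peak, which was 17.2% of the 1344 genes with such a peak. Over all protein-coding genes, 6.13% had a shared distal CEBPA peak and 4.02% a vector-only one, and the overlap was not tested. The genes with most regions were Ctif, a translation factor for newly made mRNA, and Gm20388, with 4 each. Gm20388 is an annotated gene model that runs over other genes (chr8:119910841-124345722), and 2 of its 4 regions also lay in Crispld2 or Rhou. The 8 genes with 3 regions were Ets1, Lcp1, Hdac4, Ell, Rad51b, Gramd1b, Cracr2a and Atp10a.

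Several of these are known in blood cells, but the counts were not adjusted for gene length. Under the rule a longer gene body can hold more regions, and Rad51b, for example, spanned chr12:79297282-79814690. Whether blood-cell genes were more frequent among these genes was not tested. Ets1 (chr9:32636221-32757820) encodes an ETS factor that is prominent in lymphoid cells. Its 3 regions were intronic, 18210, 20875 and 9728 bp from the nearest start, and all kept CEBPA in PuER. None of the 3 had an ETS or a CEBP site in the central window. Lcp1 (chr14:75131101-75230842) encodes L-plastin, an actin-bundling protein of leukocytes. It had 3 intronic regions, of which the one 3647 bp from a start lay 44 bp from a PU.1 PuER peak, held an ETS site and lost the CEBPA call, while the other 2 kept it. Hdac4, a histone deacetylase gene, and Ell, which encodes a transcription elongation factor, had 3 intronic regions each. CEBPA was kept at all 3 in Hdac4 and at 2 in Ell, and the third in Ell held an ETS1-type site. Gramd1b had 2 regions without a CEBPA call in PuER, both with an ETS site, and 1 with a CEBP site that kept it.

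Genes of 8 lists of haematopoietic interest, 131 genes in all, had a vector-only distal CEBPA peak in 20 cases (15.3%) and a shared one in 39 (29.8%), beside 4.02% and 6.13% of all protein-coding genes. The lists were chosen with earlier results of these data known, so these shares are a description and were not tested. Of 14 ETS factors 3 had a region, which were Ets1, Etv6 and Fli1, and 5 had a shared peak. The regions in the introns of Etv6 (chr6:134165125-134165524) and Fli1 (chr9:32470233-32470632) each held a RUNX site and lost the CEBPA call. Of 10 genes of the CEBP family and its cofactors 4 had a region and 2 a shared peak. A single region between Cebpg and Cebpa (chr7:35080929-35081328) was assigned to both, lay 24555 bp from a start of Cebpg, and was not called for CEBPA in PuER. Nfil3, a repressor of the bZIP class, had an intronic region 4568 bp from its start, and Trib1, which encodes a pseudokinase that promotes the degradation of CEBPA, had one with a CEBP site 25484 bp away. Both kept CEBPA, although the overlap at Nfil3 was 51 bp.

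Of 20 stem and progenitor factors 3 had a region and 4 a shared peak. Myb, a factor of immature haematopoietic cells, had 2 regions and no shared peak. One was in an intron (chr10:21131112-21131511) and kept CEBPA. The other lay upstream (chr10:21186664-21187063), 25879 bp from a start, held an ETS1-type site, lay 1549 bp from a PU.1 PuER peak and lost CEBPA. Gfi1, a repressor needed for granulocytes, and Runx1 had 1 region each. Monocyte and macrophage genes had a region in 1 of 20, at Ly86, a surface protein of myeloid and B cells, and a shared peak in 5. Granule protein genes had a region in 1 of 16, at Srgn, which encodes the granule proteoglycan serglycin, and a shared peak in 6. The region at Srgn was intronic, 1317 bp from a start, and kept CEBPA.

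Of 16 cytokine receptor genes 3 had a region, namely Tnfrsf1b with 2, Ifngr2 and Il17ra, and 4 had a shared peak. The regions beside Tnfrsf1b lay nearer to the start of Vps13d, and that assigned to Ifngr2 nearer to the start of Ifnar1. Of 16 cell cycle and survival genes 3 had a region, which were Cdkn1a, E2f3 and Rb1, and 5 had a shared peak. The one in an intron of Rb1 (chr14:73289972-73290371), the retinoblastoma tumour suppressor gene, lay 2464 bp from a start, held an ETS1-type and a RUNX site and lost CEBPA. Of 20 kinase and adaptor genes 2 had a region, Socs3 and Syk, and 8 had a shared peak. The region assigned to Syk, a kinase that signals from immune receptors, lay 4 bp from a PU.1 PuER peak, so its vector-only status rested on those 4 bp. A region assigned to a gene was not tested for any effect on that gene.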

How the data were processed

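Peak coordinates of 4 libraries were used (PU.1 and CEBPA, EV and PuER, 1 library each), while H3K27Ac and IgG were not analysed here. The authors aligned reads to mm10 with Bowtie2 2.0.6, called peaks with MACS2 2.0.10, as the submitters' processing notes list them, and deposited plain intervals of 400 bp. The threshold is not given in the sources used here, and read depth is unknown.

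Intervals were overlapped (1 bp), placed with GENCODE M21 and read from the soft-masked GRCm38 sequence, in which no peak ran past a chromosome end. Motifs were exact matches on both strands in the central 80 bp, with a pair of flanking windows 2000 bp away. The 8-base sequences were ranked by the difference between peaks and flanking windows (count averaged over both) over the square root of their sum plus 1. The functions were tested on simulated peaks and sequences. Regions, motifs, gene lists and tests were chosen with earlier results of these data known. Genes named were the 5 with most regions, ties included, and up to 4 of each list. The regions named individually within these genes were chosen after their values were seen. The tools were pysam 0.24.0, scipy 1.17.1, pandas 2.3.3 and numpy 2.4.6 under Python 3.11.15.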

Additional observations from a re-analysis of the deposited data

How the results depend on the processing

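No paired analysis was possible because each antibody and line had 1 library and no result came from a test across samples. Over 6 other definitions of the peaks there were 855 to 939 regions, against 949 as reported. The definitions were overlap of 50% or centres within 100 bp, distal over 2500 bp or from any transcript start, 1000 bp from every PU.1 PuER peak, or without repeat-rich peaks. The share that kept CEBPA was 78.9% to 80.6% and its difference from the shared peaks -11.8 to -9.68 points. The ETS difference was -14.7 to -12.8 points from the shared peaks and -11.8 to -6.33 from the peaks without CEBPA, and the PU.1-type difference from the shared peaks -8.13 to -7.62. Restricting to chromosomes 1 to 19 and X removed no peak of these classes. The limits are the single library and clone, calls without heights, and motif counts that follow the window and the strictness of the match.

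Only part of the differences were recomputed under the alternatives, and 9 of those were distinct from 0 as reported. The alternatives that could change these 9 gave 81 values, of which 76 stayed distinct, 5 did not and none changed direction. Among those not recomputed were the differences for MYB, IRF and E-box sites and for neither site. The differences in kept CEBPA calls by site were not recomputed either, nor were those from the PuER-only peaks, the promoter peaks and the CEBPA EV peaks without PU.1. Matched by 50% overlap, 63.7% of the centres lay within 50 bp and the difference from the shared peaks was 4.52 points, now distinct from 0, while the inside-gene difference was 2.35. With centres within 100 bp these were 72.4% for the centres and 2.30 points for genes, and the CEBP share was 20.99%. Distal over 2500 bp, the centre difference was 4.86 points and the gene difference 3.91. Distal from any transcript, the ETS1-type difference from the peaks without CEBPA was -3.72 points. In the central 200 bp the shares were 36.7% for ETS, 34.2% for CEBP, 37.8% for RUNX, 16.4% for ETS1-type sites and 11.8% for ETS and CEBP together, and the differences from the peaks without CEBPA were 6.92 points for RUNX and -6.80 for ETS1-type sites. In the whole peak these were 45.9%, 44.4%, 51.1%, 19.6% and 18.5%, with 3.06% for PU.1-type sites, and the differences were 10.0 and -6.75 points. The shares in flanking windows rose with the width as well. For ETS, CEBP and RUNX sites they were 11.6%, 7.38% and 17.4% at 200 bp, and 23.6%, 16.2% and 31.0% at the width of the whole peak. Under the CEBPA centre the shares at the regions were 16.2% for ETS, 29.7% for CEBP and 7.48% for ETS1-type sites. With GGAA the ETS share was 76.3% and that of ETS with CEBP 12.2%, and 2 differences were no longer distinct from 0, from the peaks without CEBPA (-3.38 points) and between kept and lost CEBPA (-5.33). With TTNCNNAA the CEBP share was 38.3% and that of both sites 8.96%. Over all annotated genes 62.5% were inside a gene. Assignment within 20 or 100 kb gave 706 and 982 genes. Beyond what the construction of each alternative shows, the cause was not tested.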
